A study of Homo sapiens with 18 samples.

Results

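The 41 genes described here encode proteins of the extracellular matrix and of flat, substrate-adherent cells, and were followed in SH-SY5Y cells exposed to the nerve agent sarin. Every probe set of the deposited array table that is annotated to exactly 1 of these genes was taken, which gave 107 of 22283 probe sets, and the 41 genes are part of 11963 named in this way. Of these 107, 60 probe sets of 36 genes lay in the upper 60% of all single-gene probe sets by mean level over the 18 arrays and were tested. The 5 genes without a tested probe set were COL6A3, TNC, FBN2, ANXA1 and LUM. NID2 and CD44 passed that level filter only through the group in which they were highest. A gene is described below by its brightest probe set, and its other probe sets are given where they differ. For 35 of the 41 genes the brightest probe set was above background on all 9 control arrays, where background is the 90th percentile of 27 probe sets for bacterial transcripts that were not spiked in.

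SH-SY5Y is a human neuroblastoma line with neuron-like, noradrenergic cells, and sarin is an organophosphate that blocks acetylcholinesterase. Total RNA came from untreated cells and from cells treated with sarin at 5 ppm, each at 3, 24 and 48 h, with 3 arrays in each of the 6 groups. The labels name 6 flasks per group beside the 3 arrays and do not say which flasks an array stands for. All p-values therefore measure the spread between arrays, which may be technical.

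The extracellular matrix is a mesh of fibrillar collagens, network collagens, laminins, fibronectin and proteoglycans that cells secrete, anchor to and pull on. A basement membrane is its sheet-like form, in which type IV collagen and laminin networks are linked by nidogens and perlecan. Neuroblastoma cultures can hold neuron-like cells and flatter substrate-adherent cells, and the latter are known for vimentin, CD44, fibronectin, collagens, galectin-1 and annexin A2. In RNA from a whole culture, fewer cells of such a type and less RNA per cell cannot be told apart.

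Of 14 measured genes that mark noradrenergic neuroblastoma cells, 12 or 13 were above background on all 3 arrays of every group, and the tyrosine hydroxylase gene TH on none. The 3 sarin 48 h arrays differed from the rest of the series. The ratio of GAPDH signal near the 3′ end to that near the 5′ end, which rises as RNA is degraded, was 2.15 to 2.3 on them and 0.696 to 1.17 elsewhere, and the background signal was 411 to 443 against 97 to 183. They correlated with the other arrays at 0.665 to 0.758, whereas those 15 correlated with each other at 0.909 to 0.965. At 24 h that ratio was 1.05 to 1.17 with sarin and 0.811 to 0.941 in controls, and the background was 112 to 127 with sarin and 135 to 183 in controls.

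Control signals of the members spanned a wide range. Signals of different probe sets depend on their probes, so this order describes the arrays and is no order of transcript levels. The intermediate filament gene VIM had a median signal of 25637 over the 9 control arrays, and LGALS1, which encodes the sugar-binding galectin-1, had 24333. The membrane-binding annexin gene ANXA2 followed at 9535, the microfibril gene MFAP2 at 4207, the laminin γ1 gene LAMC1 at 4098, the fibrillar collagen gene COL3A1 at 3799 and the annexin A2 partner S100A10 at 3761. Of the members below the level filter, COL6A3 had control signals from 28.1 to 312, and TNC, LUM, ANXA1 and FBN2 had at most 438.

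**Figure D1:**
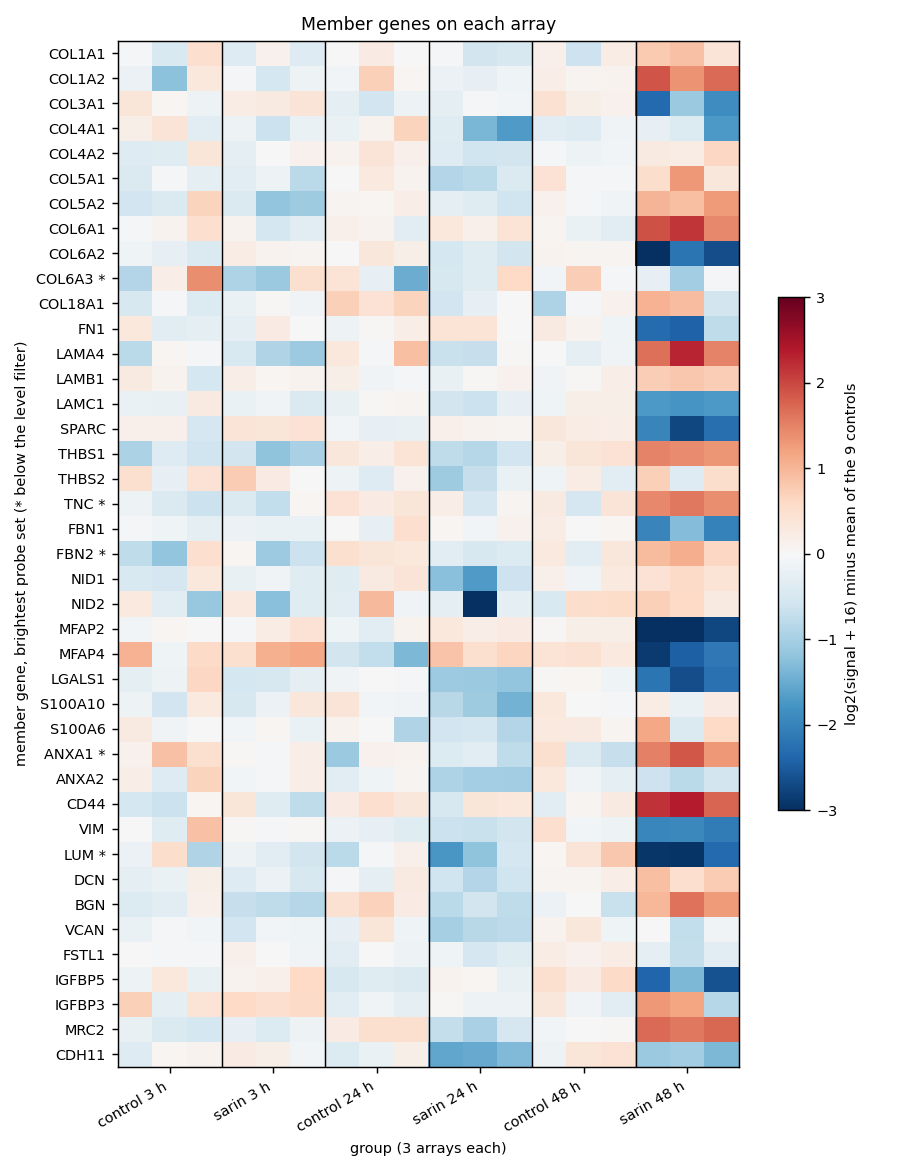
Each row is the brightest probe set of a member gene and each column an array, in 6 groups of 3. Colour is log2(signal + 16) minus the mean of the 9 control arrays, cut at -3 and 3. The columns of the sarin 24 h arrays are mostly blue, and the sarin 48 h arrays hold both the deepest blue rows (MFAP2, LUM, COL6A2, MFAP4) and the deepest red rows (CD44, COL6A1, LAMA4).

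At 3 h no member passed the threshold, an adjusted p under 0.05 in limma over all 11439 tested probe sets. The limma count was 0 of 60 member probe sets, beside 0 (0%) of all tested probe sets. At an unadjusted p under 0.05 there were 6 (10%), against a background of 9.97%. The median log2 change of the 41 genes was -0.03, and 22 lay below 0.

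By brightest probe sets, the 5 members with the smallest p at 3 h had changes within -0.79 and 0.47. Second probe sets of CDH11 (0.69) and LAMB1 (0.48) also had an unadjusted limma p under 0.05. The type V collagen gene COL5A2 was at 260, 148 and 162 with sarin and at 237, 262 and 578 in controls, a log2 change of -0.79 ± 0.31 (SE) with a limma adjusted p = 0.403. Its groups overlapped. LGALS1 was at 17083, 17896 and 20490 with sarin and at 20582, 22217 and 38125 in controls, a change of -0.49 ± 0.19 (limma adjusted p = 0.397). Its groups did not overlap, although 2 controls lay close to the highest sarin array and the spread came from the third. For SPARC, a collagen-binding matricellular glycoprotein gene, the sarin signals were 3563, 3476 and 3671 and the control signals 2994, 3003 and 1900, a change of 0.47 ± 0.18 (limma adjusted p = 0.397). Its groups did not overlap either. The small proteoglycan gene BGN was at 302, 289 and 269 with sarin and at 374, 402 and 559 in controls, again apart, with a change of -0.59 ± 0.25 (limma adjusted p = 0.434). COL6A1, a beaded-filament collagen gene, was at 898, 581 and 660 against 817, 899 and 1191, an overlap (-0.44 ± 0.22, limma adjusted p = 0.526).

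At 3 h the groups also overlapped for COL4A1, COL4A2, THBS1, S100A10, VIM, CD44, FN1 and COL1A1. COL4A1 was at 653, 458 and 634 with sarin and at 820, 964 and 578 in controls (-0.41 ± 0.37), and COL4A2, its partner chain, at 804, 976 and 1075 against 748, 763 and 1272 (0.07 ± 0.2). THBS1 was at 465, 289 and 343 against 354, 528 and 451 (-0.28 ± 0.2). S100A10 was at 2787, 3480 and 4935 against 3523, 2612 and 4789 (0.04 ± 0.23). By brightest probe set, the sarin values of these 4 genes fell inside or across the control range. The second COL4A2 probe set did not overlap, at 448, 490 and 516 against 340, 294 and 360 (0.53).

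VIM was at 29319, 27192 and 29019 with sarin at 3 h and at 28551, 22178 and 52122 in controls (-0.17 ± 0.23), where control replicate 3 was far above the others. CD44 was at 302, 176 and 129 against 155, 141 and 241 (0.12 ± 0.34). FN1 was at 1376, 2026 and 1706 against 2130, 1347 and 1385 (0.09 ± 0.31). COL1A1 was at 746, 1074 and 746 against 932, 711 and 1383 (-0.2 ± 0.26). The limma adjusted p of these 8 genes at 3 h lay between 0.694 and 0.972.

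At 24 h 13 member genes had a lower signal with sarin and 1 a higher signal. Counted by probe set, 17 of 60 were lower (28.3%) and 1 was higher (1.67%), where 3.74% of all tested probe sets were lower and 3.42% higher. The members were chosen with earlier results of these data known, so shares of members describe the list and are no independent test of it. The genes that fell encode type IV collagen and nidogen 1 of the basement membrane (COL4A1, COL4A2, NID1), galectin-1, annexin A2 and S100A10, the proteoglycans biglycan, decorin and versican (BGN, DCN, VCAN), thrombospondin-1 (THBS1), cadherin 11 (CDH11) and the collagen uptake receptor MRC2. FN1, the fibronectin gene, counts among the 13 through only 1 of its 5 tested probe sets. The median change of the 60 member probe sets was -0.48, beside -0.09 for all probe sets tested. Of the 41 genes, 32 lay below 0, as did 62.3% of all single-gene probe sets. All 3 sarin arrays lay below all 3 controls for 29 probe sets (48.3%, against 23.3% of all) and above them for 6 (10%, against 15.6%). The background was lower and the GAPDH ratio higher on these sarin arrays, as given above, and their part in the change was not tested.

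**Figure D2:**
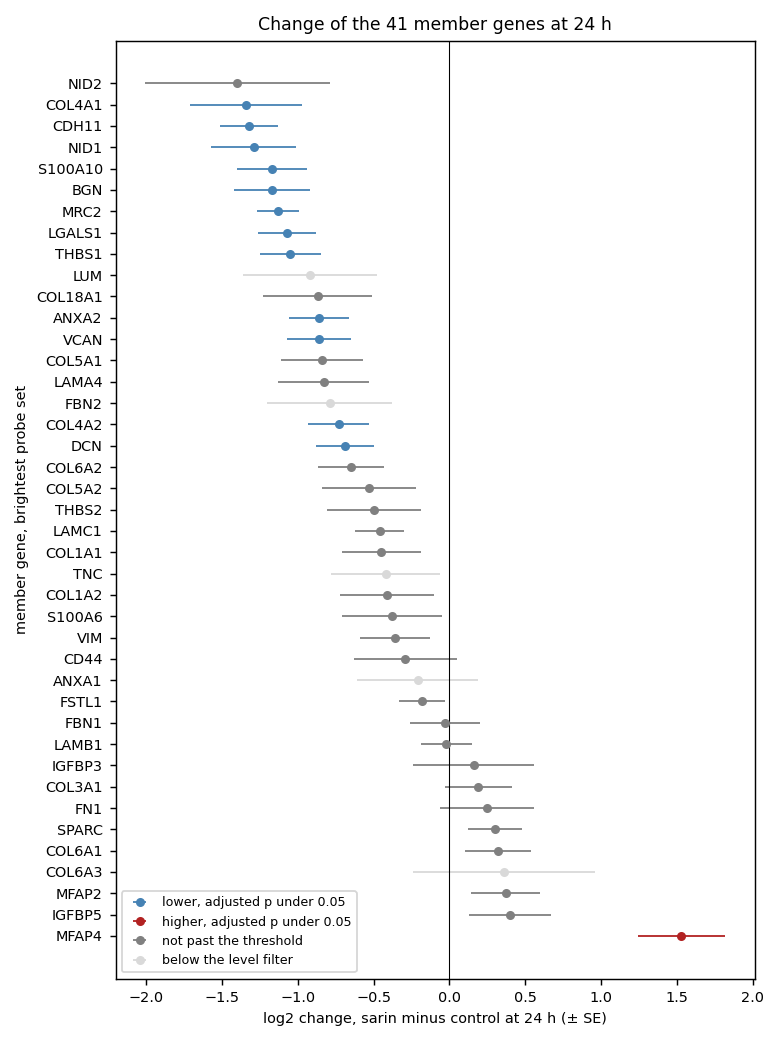
Points are the log2 change from control to sarin at 24 h for the brightest probe set of each of the 41 genes, and bars are standard errors from limma (3 arrays per group). Blue points mark the 12 genes lower at an adjusted p under 0.05, the red point marks MFAP4, dark grey points did not pass and light grey points lay below the level filter.

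The calls at 24 h depended on the scaling of the arrays. With each array scaled to its spiked-in bacterial transcripts, the count was 1 probe set, that of MFAP4, with 0 lower, where 0.323% of all tested probe sets were called. The changes of the 12 genes stayed negative and close to those on the deposited scale. LGALS1 was at -1.03 in place of -1.07 and CDH11 at -1.29 in place of -1.32. The mean log2 signal of the spiked-in transcripts itself varied, at 11.97, 11.15 and 10.89 on the 24 h controls and 11.43, 11.23 and 11.23 with sarin. Its part in the lost calls was not tested. With each array centred on its median the counts were 1 higher and 11 lower, where 13.4% of all were called and 1379 of these 1530 were higher. With quantile normalization they were 1 higher and 12 lower, where 3.76% of all were called. VCAN, COL4A2, DCN and COL4A1 lost their calls under both of these (adjusted p 0.0719 to 0.183). One array could also matter. Without sarin 24 h replicate 2, 10 member probe sets were called (2.32% of all tested probe sets). Without control 24 h replicate 2 there were 9 (2% of all). Other fits called more, with 1 higher in each. The count was 21 without the sarin 48 h arrays (12.1% of all) and 25 with only the arrays compared (18%). Array weights gave 27 (23.9%).

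Of the basement membrane genes, COL4A1 and COL4A2 encode the α1 and α2 chains that wind together into the most widespread type IV collagen. In the human genome they lie head to head, and their RefSeq start sites in GRCh38.p14 are 127 bases apart, with COL4A1 read from the minus strand and COL4A2 from the plus strand. The whole interval between these start sites, chr13:110307158-110307283 on the plus strand, is shown because both genes fell at 24 h. Capitals mark a CCAAT box (CCAAT) and a GC box (GGGCGG), each searched on both strands.
COL4A1-COL4A2 interval: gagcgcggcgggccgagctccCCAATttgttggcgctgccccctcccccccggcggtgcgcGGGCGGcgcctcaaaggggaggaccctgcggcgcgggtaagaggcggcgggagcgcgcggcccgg
Among the 250 bases before each start in RefSeq, 42.6% of 35116 windows hold a GC box and 32% a CCAAT box. Of 41 member genes, 30 had an entry, and of these 23 held a GC box and 8 a CCAAT box.

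COL4A1 was at 559, 273 and 212 with sarin at 24 h and at 630, 788 and 1172 in controls. All sarin arrays lay below all controls, by little for the highest of them. The log2 change was -1.34 ± 0.37 (limma adjusted p = 0.0357), and the call was lost without sarin replicates 2 or 3 or control replicates 2 or 3 (adjusted p up to 0.136). COL4A2 was at 745, 640 and 666 against 1048, 1294 and 1098, with no overlap. Its change was -0.73 ± 0.2 (limma adjusted p = 0.0335), and the call was lost when any 1 of the 6 arrays was left out (adjusted p 0.0533 to 0.152). Its dimmer probe set moved further, to 152, 179 and 253 from 648, 475 and 452 (-1.37 ± 0.32, limma adjusted p = 0.0165), and 4 of the 6 fits without 1 array (adjusted p up to 0.0815) and quantile normalization lost that call.

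NID1, which encodes the laminin- and collagen IV-binding nidogen 1, had 283, 203 and 447 with sarin and 537, 842 and 912 in controls at 24 h. The groups did not overlap, and the change was -1.29 ± 0.28 (limma adjusted p = 0.00967). Its second probe set was at -1.1 ± 0.27 (limma adjusted p = 0.0189). Both are called at 24 h, the brighter one not without sarin replicate 2 or control replicate 2 (adjusted p up to 0.0704), and the other lost in 3 of the 6 fits without 1 array (adjusted p up to 0.0943). The other basement membrane genes did not pass. LAMC1 was at -0.46 ± 0.16, the laminin α4 gene LAMA4 at -0.83 ± 0.3 and the collagen XVIII gene COL18A1 at -0.87 ± 0.36 (limma adjusted p 0.083, 0.0985 and 0.149). NID2, a paralog of NID1, was at -1.4 ± 0.61, where 1 sarin array read 25.3 and the others 264 and 269. The laminin β1 gene LAMB1 was at -0.02 ± 0.17.

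Genes for galectin-1, annexin A2 and S100A10 also fell at 24 h. Annexin A2 binds membrane phospholipids in the presence of calcium and forms a complex with a dimer of S100A10, at the cell surface and beneath the membrane. The 250 bases before the RefSeq start sites of both genes are shown because both fell at 24 h, ANXA2 at chr15:60397987-60398236 and S100A10 at chr1:151993860-151994109, both in GRCh38.p14 and printed from the minus strand. Capitals mark an AP-1 motif (TGANTCA) and GC boxes (GGGCGG), searched on both strands.
ANXA2: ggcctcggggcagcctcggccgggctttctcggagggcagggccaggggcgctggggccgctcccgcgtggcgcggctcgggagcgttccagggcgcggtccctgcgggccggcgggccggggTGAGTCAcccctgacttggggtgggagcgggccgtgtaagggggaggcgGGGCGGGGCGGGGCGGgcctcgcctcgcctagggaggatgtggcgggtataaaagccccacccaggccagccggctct
S100A10: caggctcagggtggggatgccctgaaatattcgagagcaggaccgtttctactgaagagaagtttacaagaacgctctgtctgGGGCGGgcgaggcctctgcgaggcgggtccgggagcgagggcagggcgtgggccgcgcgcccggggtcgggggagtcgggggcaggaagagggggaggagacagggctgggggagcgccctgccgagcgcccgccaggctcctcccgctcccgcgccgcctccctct
The ANXA2 window holds 1 AP-1 motif and 3 GC boxes and the S100A10 window 1 GC box. An AP-1 motif lies in 6.57% of all 35116 windows and in those of 2 of the 30 member genes, ANXA2 and MFAP2. A TEAD motif (GGAATG), found in 11.9% of windows, lies in those of 5: FBN1, IGFBP5, SPARC, THBS1 and THBS2.

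LGALS1 read 11696, 11445 and 10965 with sarin at 24 h and 22892, 24596 and 24333 in controls. The arrays agreed closely within each group, and all 3 sarin arrays lay below all 9 controls of the series. Its log2 change was -1.07 ± 0.19, a 2.1-fold lower level (limma adjusted p = 0.00244). S100A10 was at 2201, 1850 and 1443 against 5089, 3663 and 3616, and its sarin arrays also lay below all 9 controls. The change was -1.17 ± 0.23 (limma adjusted p = 0.00556).

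ANXA2 read 5366, 5073 and 4966 with sarin and 8117, 9335 and 10804 in controls at 24 h. The groups did not overlap. The change was -0.86 ± 0.2 (limma adjusted p = 0.0166), and the call was lost in 5 of the 6 fits without 1 array (adjusted p up to 0.0689) and with median centring (adjusted p = 0.0726). Both other ANXA2 probe sets fell too, by -1.11 ± 0.17 and -1.04 ± 0.2 (limma adjusted p = 0.00093 and 0.00447). All 3 carry the array maker's mark for probes that can match other transcripts, as do the brightest probe sets of CDH11, BGN, DCN, COL1A1, FN1 and CD44. The related genes S100A6 and ANXA1 were at -0.38 ± 0.33 and -0.21 ± 0.4, and ANXA1 lay below the level filter.

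VIM, the cytoskeletal marker of mesenchymal and substrate-adherent cells, did not pass at 24 h on the deposited scale. Its signals were 18341, 18015 and 19315 with sarin and 25186, 24027 and 22203 in controls, which did not overlap. The change was -0.36 ± 0.23 (limma adjusted p = 0.35). With quantile normalization it was -0.45 and passed (limma adjusted p = 0.0258), and with median centring it was -0.07 (limma adjusted p = 0.871). The hyaluronan receptor gene CD44 was at 159, 300 and 291 against 277, 330 and 293, an overlap, and at -0.29 ± 0.34 (limma adjusted p = 0.64).

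The proteoglycan genes BGN, VCAN and DCN fell at 24 h. BGN, which encodes biglycan, a small leucine-rich proteoglycan, was at 278, 338 and 287 with sarin and at 688, 825 and 596 in controls, with no overlap and a change of -1.17 ± 0.25 (limma adjusted p = 0.00769). The call was lost without control replicate 2 (adjusted p = 0.0572). VCAN, the gene of the large hyaluronan-binding proteoglycan versican, had 619, 695 and 715 against 1038, 1593 and 1138. Its change was -0.86 ± 0.21 (limma adjusted p = 0.022), lost without sarin replicates 1 or 2 or control replicate 2 (adjusted p up to 0.132). DCN, the decorin gene, had 630, 519 and 630 against 929, 805 and 1179 and a change of -0.69 ± 0.19 (limma adjusted p = 0.0332). Of the 6 fits without 1 array, 5 lost the DCN call (adjusted p up to 0.145). The related LUM was at -0.92 ± 0.44, below the level filter and above background on 1 of the 3 sarin arrays.

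The adhesion and uptake receptors CDH11 and MRC2 had the smallest p of the brightest member probe sets. CDH11, a cadherin of mesenchymal cells, was at 586, 602 and 684 with sarin at 24 h and at 1303, 1524 and 1986 in controls. No sarin array came near a control, of this or another time. The change was -1.32 ± 0.19, a 2.5-fold lower level (limma adjusted p = 0.000621). MRC2, which takes up collagen fragments into the cell, was at 1066, 890 and 1234 against 2088, 2472 and 2447, again without overlap. It changed by -1.13 ± 0.14 (limma adjusted p = 0.000138). The second probe sets of these genes did not pass, at -0.51 ± 0.25 for CDH11 and -0.13 ± 0.37 for MRC2.

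THBS1 encodes thrombospondin-1, a matricellular protein that binds CD47 and CD36 and can activate latent TGF-β. Its signals at 24 h were 400, 374 and 457 with sarin and 878, 796 and 925 in controls. The groups were far apart, and the change was -1.05 ± 0.2 (limma adjusted p = 0.00451). Its second tested probe set was at -0.87 ± 0.35 (limma adjusted p = 0.136). SPARC went the other way without passing, at 2986, 2923 and 2862 against 2534, 2267 and 2298 (0.3 ± 0.18, limma adjusted p = 0.308). THBS2 was at -0.5 ± 0.31 and TNC, below the level filter, at -0.42 ± 0.36.

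Fibrillar and beaded-filament collagen genes did not pass at 24 h. COL1A1, the α1 chain of type I collagen, was at 933, 665 and 692 with sarin and at 973, 1152 and 986 in controls. These did not overlap, and the change was -0.45 ± 0.26 (limma adjusted p = 0.295). The other type I chain gene COL1A2 was at -0.41 ± 0.31, COL3A1 at 0.19 ± 0.22, and the type V genes COL5A1 and COL5A2 at -0.84 ± 0.27 and -0.53 ± 0.31. Of the type VI collagen chains, COL6A1 was at 0.32 ± 0.22 and COL6A2 at -0.65 ± 0.22 (limma adjusted p = 0.38 and 0.076). The second COL6A2 probe set was at 0.12. COL6A3, below the level filter, was at 0.36 ± 0.6.

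FN1 probe sets disagreed at 24 h. The brightest read 2266, 2280 and 1683 with sarin and 1534, 1735 and 1947 in controls, overlapping, with a change of 0.25 ± 0.31 (limma adjusted p = 0.668). The 3 next brightest were at -0.03, -0.01 and 0.19. The dimmest tested one read 170, 74.5 and 185 against 427, 708 and 347, and its change was -1.7 ± 0.35 (limma adjusted p = 0.00717), lost without sarin replicate 2 or control replicate 2 (adjusted p up to 0.0596).

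Among the elastic microfibril genes, MFAP4, which encodes a microfibril-associated glycoprotein, was higher at 24 h. Its signals were 1298, 1011 and 1125 with sarin and 484, 423 and 272 in the 24 h controls, with a change of 1.53 ± 0.29 (limma adjusted p = 0.00398). The 3 h controls were at 1486, 650 and 1065 and the 48 h controls at 961, 994 and 875, so the 24 h controls were the low ones. Against the 3 h and 48 h controls together, a comparison chosen after these values had been seen, the change was 0.22 ± 0.25 (limma adjusted p = 0.647). MFAP2 and the fibrillin gene FBN1 were at 0.37 ± 0.23 and -0.03 ± 0.23, and FBN2, below the level filter, at -0.79 ± 0.41. The growth factor carriers IGFBP5 and IGFBP3 were at 0.4 ± 0.27 and 0.16 ± 0.4, and the follistatin-like gene FSTL1 at -0.18 ± 0.15.

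**Figure D3:**
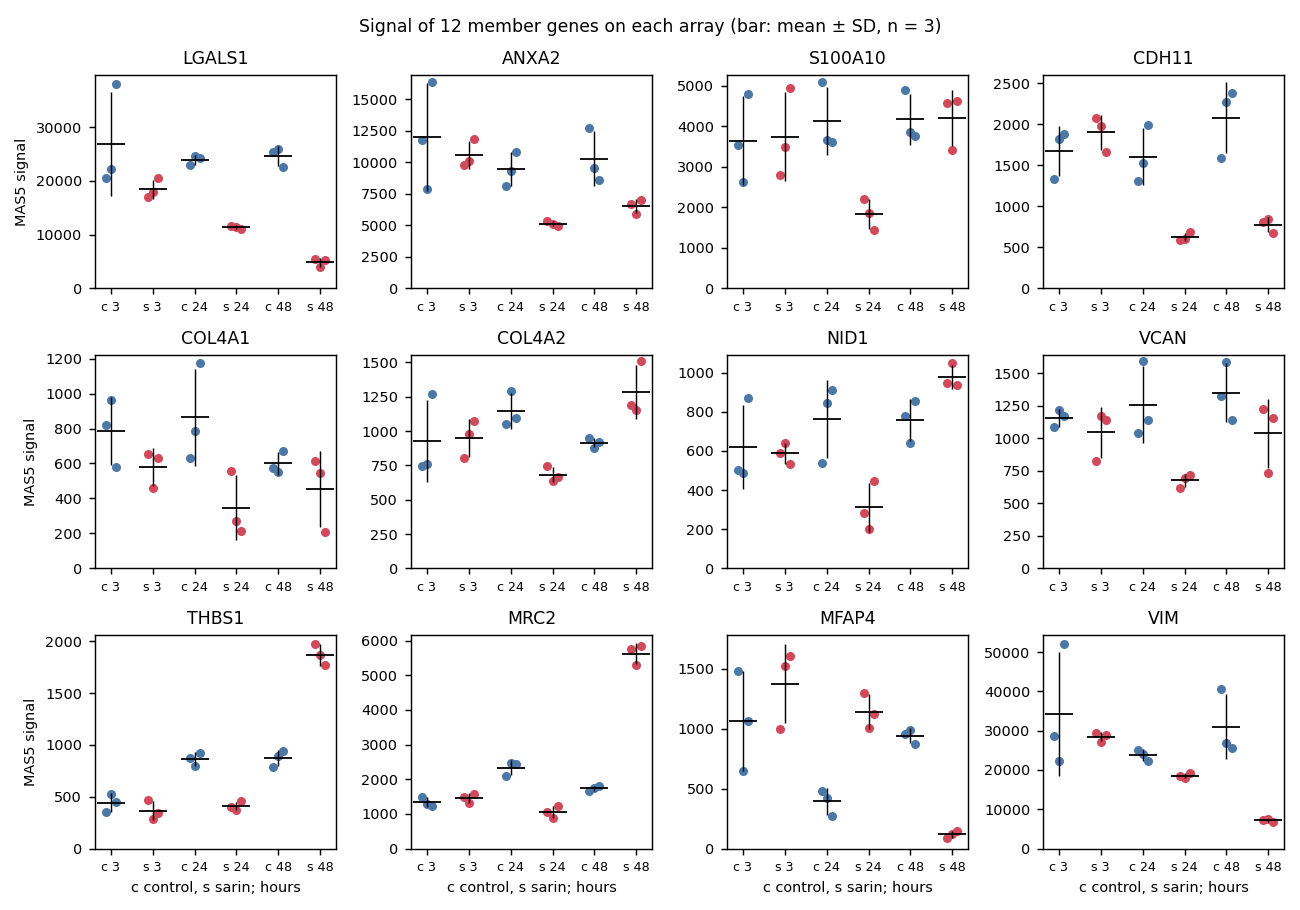
Points are the deposited signals of 12 member genes on each array on a linear axis from 0 (blue for control, red for sarin), and bars are the mean ± SD of 3 arrays. At 24 h the sarin arrays of LGALS1, ANXA2, S100A10, CDH11, COL4A2, NID1 and VCAN lie below all 9 controls, those of THBS1 and MRC2 lie near or below the 3 h controls, and MFAP4 is low in the 24 h controls.

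Set against every control of the series, 15 of 60 member probe sets had all 3 sarin 24 h arrays below all 9 controls (5.78% of all tested probe sets did), and 1 lay above them (6.07%). Of the 12 genes called lower by their brightest probe set, 8 were among them: LGALS1, ANXA2, S100A10, CDH11, VCAN, COL4A2, DCN and NID1. In the comparison with the 3 h and 48 h controls, 21 member probe sets were called, all lower, where 5.89% of all tested probe sets were lower and 5.3% higher, and 15 of them were also called against the 24 h controls. By gene, 10 of the 12 were called again. COL4A2 was then at -0.4 ± 0.17 (limma adjusted p = 0.147) and BGN at -0.48 ± 0.21 (limma adjusted p = 0.163).

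Per array, the median over the 41 genes, relative to the mean of the 9 controls, was -0.479, -0.527 and -0.401 on the sarin 24 h arrays. The controls lay between -0.203 and 0.139 and the sarin 3 h arrays between -0.153 and -0.11. No control or sarin 3 h array was as low as a sarin 24 h array. By control signal, 8 of the 41 lay in the highest decile of all single-gene probe sets, with a median change of -0.407 at 24 h, while that decile as a whole had 0.091.

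The summed signal of the noradrenergic marker genes was 104540 to 108338 on the sarin 24 h arrays and 92971 to 104600 on their controls. Of 13 such genes tested, 2 were higher (GATA3, CHGA) and 2 lower (RET, CHGB). Summed Schwann or glial markers were 692 to 766 against 1040 to 1276, with 3 of 6 genes above background on no array in each group. Endothelial markers summed to 574 to 677 against 860 to 990, where 1 of 4 genes, PECAM1, was above background on all arrays. Leukocyte markers summed to 338 to 683 against 647 to 880 and epithelial markers to 678 to 715 against 769 to 895. Controls of other times differed from those of 24 h. In the same order, the 4 sums were 494 to 934, 562 to 952, 258 to 677 and 514 to 630 at 3 h. At 48 h they were 808 to 1254, 594 to 1000, 576 to 950 and 452 to 818. The part of these marker levels in the members' change was not tested.

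Control cultures also differed between times. The 3′ to 5′ ratio of the actin gene ACTB ran from 0.79 to 1.14 on the 3 h control arrays and from 1.46 to 1.5 on those of 24 h, and the median signal from 310.2 to 339.2 and from 397 to 413.9. Their part in the differences was not tested. At 24 h against 3 h, 3 member probe sets were higher (5%, background 3.23%) and 1 lower (1.67%, background 2.04%). THBS1 was at 354, 528 and 451 in the 3 h controls and at 878, 796 and 925 in the 24 h controls, a change of 0.95 ± 0.2 (limma adjusted p = 0.0121), lost without control 3 h replicate 1 (adjusted p = 0.0539). MRC2 was at 1502, 1300 and 1217, then at 2088, 2472 and 2447, a change of 0.8 ± 0.14 (limma adjusted p = 0.00386). The sarin 24 h arrays of these genes differed from the 3 h controls by -0.1 ± 0.2 for THBS1 and -0.34 ± 0.14 for MRC2 (limma adjusted p = 0.829 and 0.164). Against the 3 h and 48 h controls together they were lower, by -0.58 for THBS1 and -0.52 for MRC2 (limma adjusted p = 0.0386 and 0.00918). Control differences depended on the scaling. With median centring, 24 h against 3 h gave 2 higher and 7 lower, where 14.4% of all were called, 141 of these 1648 higher. Scaled to spike-ins it gave 0 higher and 22 lower, where 32.3% of all were called, 18 of these 3696 higher.

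MFAP4 was the 1 member lower in 24 h than in 3 h controls (-1.36 ± 0.29, limma adjusted p = 0.0116), lost without control 24 h replicate 3 or control 3 h replicate 1 (adjusted p up to 0.0606). At 48 h against 3 h, THBS1 was higher (0.97 ± 0.2, limma adjusted p = 0.0484; 0.175% of all tested probe sets were higher and 0.149% lower), and 5 of the 6 fits without 1 array lost it. At 48 h against 24 h, limma called 0 member probe sets (0.428% of all in either direction), and 11 of 60 (18.3%) had an unadjusted p under 0.05, beside 10.2% of all.

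The sarin effect differed between 24 h and 3 h for 2 members, both lower (3.33%, where 0.455% of all tested probe sets were lower and 0.262% higher). The difference between the 24 h and 3 h effects was -1.51 ± 0.28 for CDH11 (limma adjusted p = 0.0149) and -1.25 ± 0.2 for MRC2 (limma adjusted p = 0.00667). The second MRC2 probe set was not called, with effects of -0.13 at 24 h and -0.3 at 3 h. Scaled to spike-ins, neither gene kept its call. At 3 h CDH11 was at 2075, 1974 and 1663 with sarin and at 1329, 1819 and 1879 in controls, which overlap. Its second probe set was at 654, 745 and 1049 against 526, 422 and 533 at 3 h, without overlap. The CDH11 call was lost without sarin 24 h replicate 2 or sarin 3 h replicate 2 (adjusted p up to 0.0501). For the other 11 genes lower at 24 h, a difference from the 3 h effect was not shown, with S100A10 the nearest of the brightest probe sets at -1.21 ± 0.33 (limma adjusted p = 0.107).

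Genes that act on the same matrix were taken from 3 lists. Their counts at 24 h stand beside 3.42% higher and 3.74% lower of all tested probe sets, and their medians beside -0.09 for all of these. Of 15 tested genes for collagen processing and crosslinking, 1 was higher and 1 lower at 24 h, with a median change of -0.29. SERPINH1, the collagen chaperone of the endoplasmic reticulum, rose from 1039 ± 36.2 to 2116 ± 393 (SD, n = 3; 1 ± 0.19, limma adjusted p = 0.00429). P4HA2, a prolyl hydroxylase subunit that makes the collagen helix stable, fell from 2036 ± 440 to 1006 ± 52.5 (-0.98 ± 0.19, limma adjusted p = 0.00398).

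Of 16 tested matrix receptor genes, ITGB3 was the 1 that fell at 24 h, from 590 ± 135 to 173 ± 90.3 (-1.81 ± 0.4, limma adjusted p = 0.0116), lost without sarin replicate 1 or control replicate 2 (adjusted p up to 0.0734). It encodes the integrin β3 chain of vitronectin and fibronectin receptors. The main β1 integrin gene ITGB1 was at -0.26 ± 0.15, and the list's median was -0.28. Of 18 tested regulators of the TGF-β and YAP pathways and of the mesenchymal state, LTBP2 alone was called in that list at 24 h. It encodes a microfibril-bound protein of the latent TGF-β binding family and fell from 755 ± 110 to 295 ± 36 (-1.31 ± 0.22, limma adjusted p = 0.00196), and the list's median was -0.39. Limma called 0 genes of these lists at 3 h. Scaled to spike-ins, none of these 4 genes kept its call (adjusted p 0.101 to 0.254).

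At 48 h the members split: 25 of 60 probe sets were lower (41.7%) and 19 higher (31.7%), close to the 35.6% and 33% of all tested probe sets. Matrix genes bright in controls, such as MFAP2, SPARC, COL3A1 and LAMC1, were lower, and COL6A1, LAMA4, BGN and MRC2 were higher. LAMB1 was higher by 1 of its 2 tested probe sets. FBN1, IGFBP5 and MFAP4, whose control medians were 670, 688 and 875, were also lower. These sarin arrays had the raised GAPDH ratio and background given above. The part of RNA quality and background in these changes was not tested, and both moved with treatment, so they cannot be told apart from it here.

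Rises at 48 h depended on the scaling. With arrays scaled to spike-ins, 0 member probe sets were higher and 47 lower. The mean log2 signal of the spike-ins was 13.22, 13.42 and 13.64 on the sarin 48 h arrays and 11.73, 11.26 and 11.12 on their controls. What moved it was not tested, so neither scale is taken as the right one. Of all tested probe sets 81.3% were then called, and 45 of these 9295 were higher. The median of all probe sets moved from -0.03 to -2. With median centring there were 11 higher and 31 lower, where 68.2% of all were called and 2070 of these 7800 were higher. With quantile normalization there were 17 and 27, where 68.7% of all were called and 3149 of these 7861 were higher. Each value below is on the deposited scale, where every array has nearly the same trimmed mean (800.1 to 800.3). Rises and falls are relative to that mean. Control signals of some higher genes were no brighter than the sarin arrays' background of 411 to 443. Those of COL5A2 (396, 347 and 331) lay below it and those of BGN (442, 501 and 312) around it.

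MFAP2 and SPARC fell at 48 h. MFAP2 was at 227, 506 and 604 with sarin and at 4207, 4671 and 4648 in controls, above background on 2 of the 3 sarin arrays. Its change was -3.4 ± 0.23 (limma adjusted p = 4.9e-10). SPARC was at 670, 392 and 547 against 3443, 3172 and 3124, also above background on 2 sarin arrays, with a change of -2.59 ± 0.18 (limma adjusted p = 5.09e-10). Neither gene's groups came near each other.

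MFAP4, COL6A2, IGFBP5 and FBN1 were at or below background on all sarin 48 h arrays, so their changes are bounds set by that background. MFAP4 was at 84, 118 and 150 against 961, 994 and 875, at least 2.19-fold lower (limma adjusted p = 7.39e-08). COL6A2 was at 92.4, 214 and 150 against 1106, 1100 and 1103, at least 2.55-fold lower (limma adjusted p = 2.53e-09). IGFBP5 was at 135, 295 and 112 against 1090, 924 and 1156, at least 2.44-fold lower, and FBN1 at 161, 267 and 155 against 793, 670 and 706, at least 1.68-fold lower. The sarin signals of these 4 genes lay under every control of the series.

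LGALS1 and VIM, measured well above background on every array, were also lower at 48 h. LGALS1 read 5430, 3934 and 5266 with sarin and 25366, 25994 and 22513 in controls, a change of -2.34 ± 0.19 (limma adjusted p = 3.63e-09). VIM read 7291, 7453 and 6671 against 40538, 26800 and 25637, a change of -2.09 ± 0.23 (limma adjusted p = 2.33e-07). Their 3 sarin arrays were alike, and both genes lay below every other array of the series. COL3A1 was at 706, 1660 and 987 against 4952, 4073 and 3947 (-2.02 ± 0.22, limma adjusted p = 1.99e-07), and LAMC1 was at -1.81 ± 0.16, CDH11 at -1.39 ± 0.19, ANXA2 at -0.64 ± 0.2 (0.25 with quantile normalization) and FSTL1 at -0.63 ± 0.15. The ANXA2 call was lost without control 48 h replicate 1 (adjusted p = 0.0647). S100A10, lower at 24 h, was at 4562, 3415 and 4619 against 4881, 3852 and 3761, an overlap (0.01 ± 0.23, limma adjusted p = 0.977).

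FN1 fell at 48 h by its 4 brighter probe sets and not by the dimmest. The brightest was at 330, 305 and 994 against 2041, 1824 and 1542, above background on 1 sarin array, with a change of -1.91 ± 0.31 (limma adjusted p = 2.93e-05). Another was at 129, 93.3 and 88.8 against 1264, 1530 and 1185, at least 3.05-fold lower (limma adjusted p = 5.33e-10). The dimmest, which fell at 24 h, was at 469, 750 and 486 against 264, 356 and 401 (0.7 ± 0.35, limma adjusted p = 0.0827).

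COL6A1 and LAMA4 rose at 48 h on the deposited scale. COL6A1 was at 3209, 3772 and 2296 with sarin and at 884, 734 and 655 in controls (1.99 ± 0.22, limma adjusted p = 2.44e-07). LAMA4 was at 1949, 3004 and 1741 against 609, 504 and 562 (1.93 ± 0.3, limma adjusted p = 1.65e-05). Neither gene's groups overlapped, and with spike-in scaling they were at -0.05 and -0.09. CD44 was at 1084, 1234 and 802 against 177, 245 and 281, a change of 2.08 ± 0.34, or 0.08 with spike-in scaling. It passed the level filter only through these sarin arrays, so its change is given as a description, and its control signals lay below the 411 to 443 of the sarin arrays' background.

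MRC2 and THBS1, both lower at 24 h, were higher at 48 h on the deposited scale. MRC2 was at 5748, 5295 and 5839 against 1650, 1745 and 1809 (1.69 ± 0.14, limma adjusted p = 7.56e-09), and THBS1 at 1979, 1866 and 1769 against 791, 893 and 944 (1.08 ± 0.2, limma adjusted p = 0.000126). No array of one group came near the other. BGN was at 1013, 1595 and 1247 against 442, 501 and 312 (1.58 ± 0.25, limma adjusted p = 1.57e-05). All 3 turn below 0 when scaled to spike-ins, to -0.36 for MRC2, -0.94 for THBS1 and -0.42 for BGN.

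Fibrillar collagens other than COL3A1 were higher at 48 h on the deposited scale and below 0 with spike-in scaling. COL1A2 was at 1592, 1090 and 1404 against 488, 447 and 453 (1.51 ± 0.31, limma adjusted p = 0.000343), and COL5A2 was at 749, 684 and 888 against 396, 347 and 331 (1.07 ± 0.31). COL1A1 was at 1702, 1820 and 1282 against 1095, 632 and 1140 (0.77 ± 0.26, limma adjusted p = 0.0128), a call lost without control 48 h replicate 2 (adjusted p = 0.103). These groups were apart for all 3 genes named so far. COL5A1 was at 0.62 ± 0.27, a call that 3 of the 6 fits without 1 array lost. COL4A2 was at 1188, 1152 and 1512 against 950, 880 and 919 (0.47 ± 0.2, or -0.09 with median centring), and 4 of the 6 such fits lost its call. The second COL4A2 probe set was not called, at -0.62. LAMB1 was at 0.72 ± 0.17 by its brightest probe set. Its second one was at 1869, 1800 and 1898 against 2094, 1902 and 1903 (-0.08), with the sarin arrays below the controls. DCN was at 0.6 ± 0.19. COL4A1 was at 612, 543 and 209 against 576, 552 and 672, an overlap (-0.52 ± 0.37, limma adjusted p = 0.224).

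Of the members below the level filter, TNC and ANXA1 had higher signals at 48 h. TNC was at 460, 509 and 442 against 196, 108 and 212, and ANXA1 at 564, 722 and 479 against 266, 134 and 110. The control signals of both lay below the 411 to 443 of the sarin arrays' background. In a limma fit without the level filter the changes of TNC and ANXA1 were 1.42 ± 0.36 and 1.77 ± 0.4 (adjusted p = 0.00249 and 0.001). LUM, the lumican gene, was at 18.3, 17.9 and 35.5 against 256, 328 and 438, below background on every sarin array, and its controls lay near that background, so no fold is given. FBN2 was at 0.79 ± 0.41 and COL6A3 at -0.65 ± 0.6. Tested members that did not pass at 48 h were also COL18A1 (0.76 ± 0.36), IGFBP3 (0.57 ± 0.4), THBS2 (0.35 ± 0.31), NID2 (0.32 ± 0.61), S100A6 (0.22 ± 0.33) and VCAN (-0.4 ± 0.21).

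**Figure D4:**
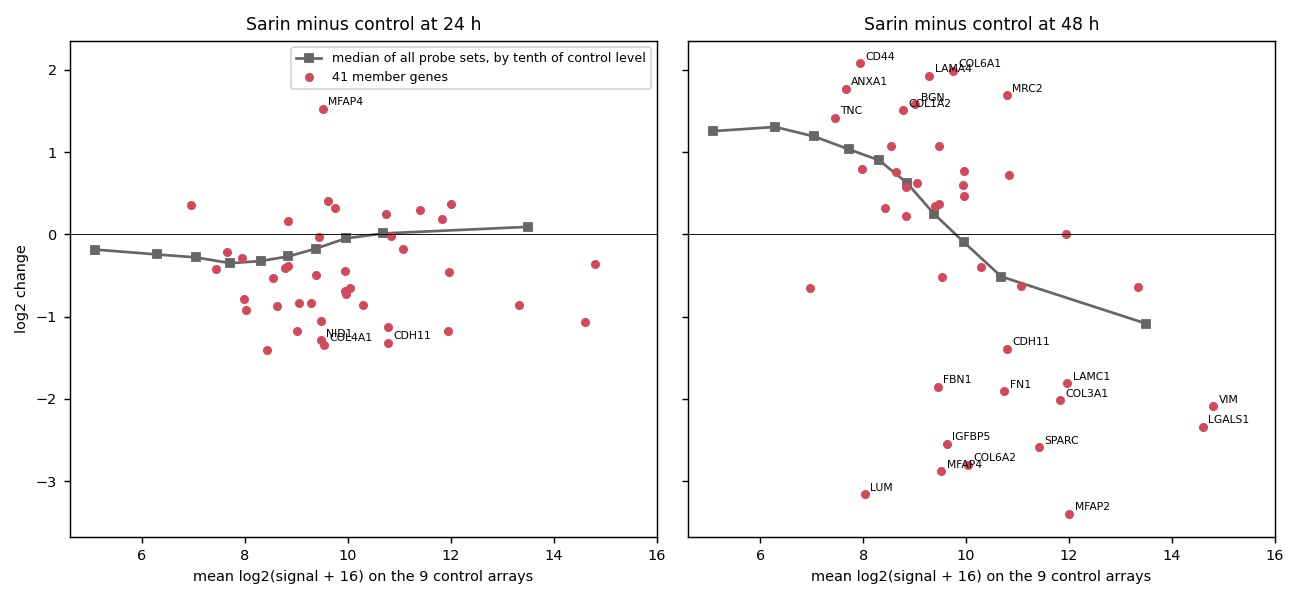
Red points are the brightest probe sets of the 41 genes, placed by mean log2(signal + 16) on the 9 control arrays and by log2 change at 24 h (left) and 48 h (right). Grey squares are medians of all single-gene probe sets in deciles of control level. At 48 h the grey line is at 1.255 in the lowest decile and -1.086 in the highest, and at 24 h it stays between -0.35 and 0.091.

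Change at 48 h followed control level across all probe sets. The median change was 1.255 in the lowest decile by control signal and -1.086 in the highest, which holds signals from 2180 upward. Of the 41 members, 8 lay in that highest decile, and 7 of these were below 0, with a median of -2.051. The 5 members in the decile from 154 to 245 had a median of 1.416, beside 1.035 for that decile. LUM, below background with sarin, was the 1 of them below 0.

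Probe sets of the same gene did not always move together. Of 19 genes with 2 or more tested probe sets, all probe sets had the same sign for 12 at 3 h, 13 at 24 h and 10 at 48 h. COL6A2 and IGFBP5 had opposite calls at 48 h. The second COL6A2 probe set was at 564, 1198 and 1106 with sarin and at 482, 277 and 352 in controls (1.29 ± 0.34, limma adjusted p = 0.00264). The second IGFBP5 probe set was at 1323, 1099 and 1332 against 430, 534 and 409 (1.42 ± 0.23, limma adjusted p = 2.73e-05). Control signals of these second probe sets lay below or around the 411 to 443 of the sarin arrays' background. In NID1 the brighter was at 0.37 ± 0.28 and the other at 120, 100 and 55.1 against 784, 1010 and 984, at least 2.14-fold lower (limma adjusted p = 6.53e-09).

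**Figure D5:**
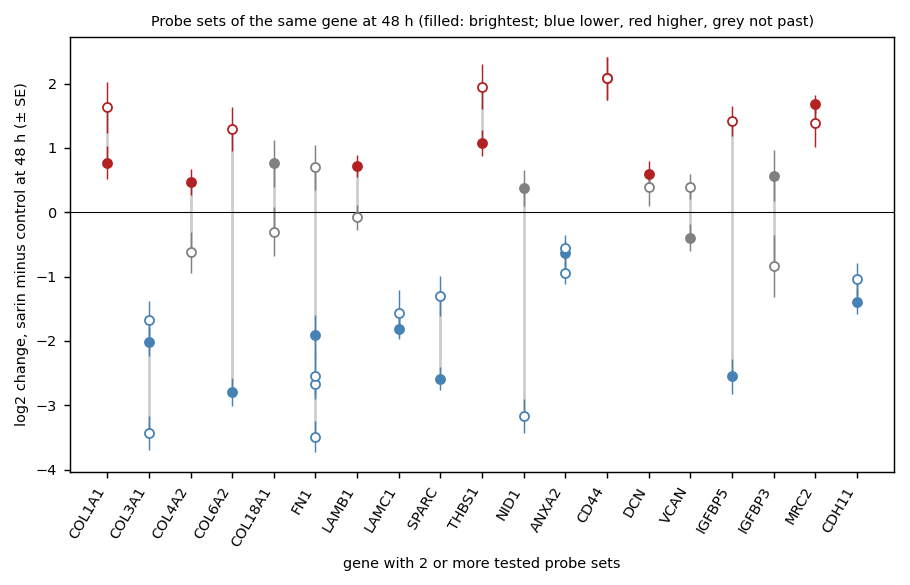
Points are the log2 change from control to sarin at 48 h, with standard errors from limma, of every tested probe set of the 19 genes with 2 or more of them. Filled points are the brightest probe set of a gene, blue marks lower and red higher at an adjusted p under 0.05, and grey did not pass. Points of probe sets at or below background with sarin, such as the lower ones of COL6A2, IGFBP5 and NID1, show measured values and are not exact sizes. COL6A2 and IGFBP5 have a blue and a red point each.

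The sarin effect at 48 h, set against that at 24 h, was higher for 25 member probe sets (41.7%, background 30.7%) and lower for 18 (30%, background 30.9%). With median centring these counts were 10 and 24, where 63.5% of all were called and 1579 of these 7262 were higher. Scaled to spike-ins they were 0 and 33, where 68.9% of all were called and 61 of these 7885 were higher. By brightest probe sets measured above background in every group, MRC2 differed by 2.82 ± 0.2 and LGALS1 by -1.27 ± 0.27. COL6A2, FN1, IGFBP5 and NID1 had probe sets called in both directions in this comparison.

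Counts of the lists of related genes at 48 h stand beside 33% higher and 35.6% lower of all tested probe sets. For collagen processing 2 genes were higher and 6 lower of 15, for matrix receptors 4 and 7 of 16, and for TGF-β, YAP and mesenchymal regulators 7 and 6 of 18. Noradrenergic markers summed to 44920 to 55097 with sarin at 48 h and to 88025 to 93318 in controls, and the summed endothelial, glial, leukocyte and epithelial markers had sums of 1220 to 2847 over the 4 lists against 452 to 1254. With sarin 1 of 6 glial, 2 of 4 endothelial, 1 of 4 leukocyte and 1 of 5 epithelial genes were above background on all 3 arrays, and that background was itself 411 to 443. Their part in the members' changes was not tested.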

How the data were processed

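The samples were 18 arrays of SH-SY5Y RNA, 3 per group of treatment (sarin at 5 ppm or none) and time (3, 24 or 48 h), grouped by their titles. Each deposited value is a linear signal intensity, for which the submitters' processing notes name MAS5. The version of MAS5 and its scaling are not given in the sources read. The values themselves have nearly the same mean on all 18 arrays, 800.1 to 800.3 with the highest and lowest 2% left out. Changes on the deposited scale are therefore relative to that common mean. Of 22283 probe sets, 19065 had 1 gene symbol in the platform annotation, 1043 had several, 2107 had none and 68 were controls.

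The intensity was used as log2(signal + 16). Changes were tested with limma 3.58.1 in R 4.3.3 (lmFit on 6 group means over all 18 arrays, eBayes with a trend) over the 11439 single-gene probe sets in the upper 60% by mean level, with Benjamini-Hochberg adjustment and a threshold of 0.05. Values after ± are standard errors of limma unless SD is named. Changes and folds are on the log2(signal + 16) scale and understate those of dim genes. Where a group was not above background on any array, an "at least" fold sets the brighter group's mean against the higher of the dim probe set's own signal and that array's background. For genes below the filter, a fit without it gave the adjusted p. The number of arrays limits the precision.

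Every member is accounted for. Values per array are given for up to 8 members in each direction with the largest change among those past the threshold, for 10 genes at every time, and for the 5 with the smallest p where none passed. Further genes called at 24 h are added, and list genes are named at 24 h. The members, lists, tests and the rule for named genes were chosen with earlier results of these data known. Promoter windows are RefSeq's, GRCh38.p14, with 30 of 41 genes matched. The fit was tested on simulated data. Alternatives were the pseudocount, level filter, normalization, array weights, replicate block, 1 probe set per gene, the arrays fitted and each array left out. The comparison with the 3 h and 48 h controls was chosen after seeing the data.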

Additional observations from a re-analysis of the deposited data

Results flagged for a closer look

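The sarin effect of 2 members differed between 24 h and 3 h by a limma test of the difference itself. By brightest probe sets, CDH11 differed by -1.51 ± 0.28 and MRC2 by -1.25 ± 0.2 (24 h minus 3 h). The second MRC2 probe set was not called, with effects of -0.13 at 24 h and -0.3 at 3 h. By its brightest probe set, MRC2 on the sarin 24 h arrays differed from the 3 h controls by -0.34 ± 0.14 (limma adjusted p = 0.164). Scaled to spike-ins, neither CDH11 nor MRC2 kept its call.

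Between 48 h and 24 h the effect differed for 27 of 36 tested members by the same kind of test (adjusted p from 4.16e-09 to 0.0141), where 61.6% of all tested probe sets differed. The sarin 48 h arrays stood apart from all others in GAPDH ratio and background, and the part of that in these differences was not tested. In 11 genes the effect was lower at 48 h, which were MFAP4 (-4.41 ± 0.41), MFAP2 (-3.77 ± 0.33), IGFBP5 (-2.96 ± 0.38), SPARC (-2.9 ± 0.25), COL3A1 (-2.21 ± 0.31), FN1 (-2.15 ± 0.44), COL6A2 (-2.15 ± 0.31), FBN1 (-1.81 ± 0.33), VIM (-1.73 ± 0.32), LAMC1 (-1.36 ± 0.22) and LGALS1 (-1.27 ± 0.27). For MFAP4, COL6A2, IGFBP5 and FBN1 the sarin 48 h arrays were at or below background, so these values are not exact sizes and give no order. Other probe sets of COL6A2, FN1 and IGFBP5 were called in the opposite direction, at 1.17 ± 0.48, 2.4 ± 0.5 and 1.57 ± 0.33.

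In 16 genes the effect was higher at 48 h than at 24 h on the deposited scale. The largest were MRC2 (2.82 ± 0.2), LAMA4 (2.76 ± 0.42), BGN (2.76 ± 0.35), CD44 (2.37 ± 0.49) and THBS1 (2.13 ± 0.29), of which CD44 passed the level filter only through its sarin 48 h arrays. COL1A2 (1.92 ± 0.44), COL6A1 (1.66 ± 0.31), NID1 (1.65 ± 0.39), COL18A1 (1.62 ± 0.51), COL5A2 (1.6 ± 0.44) and COL5A1 (1.46 ± 0.38) followed. The others were DCN (1.28 ± 0.26), COL1A1 (1.21 ± 0.36), COL4A2 (1.2 ± 0.28), S100A10 (1.17 ± 0.33) and LAMB1 (0.73 ± 0.24). The second probe set of NID1 was called in the opposite direction, at -2.07 ± 0.38. Of these 16, 11 turned below 0 when arrays were scaled to spike-ins.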

How the results depend on the processing

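Counts are of member probe sets past the threshold. Without 1 array they ranged from 0 to 0 at 3 h, 9 to 15 at 24 h and 41 to 46 at 48 h, from 1 to 4, 0 to 1 and 0 to 0 for controls (24 h against 3 h, 48 h against 3 h, 48 h against 24 h), from 1 to 5 for the 24 h minus 3 h effect, where 5 came without control 3 h replicate 3 and 1 without sarin 24 h replicate 2 or sarin 3 h replicate 2, and from 41 to 46 for 48 h minus 24 h. From here on, shares of all tested probe sets called stand in brackets. Scaled to spike-ins, the counts were 1 at 24 h (0.323%), and 22 (32.3%) and 14 (32.7%) for controls at 24 h and 48 h against 3 h. For the 24 h minus 3 h effect the count was 0 (0.00874%). Median centring gave 9 (14.4%), 0 (0.498%) and 1 (0.542%) for these controls and 48 h against 24 h. Quantile normalization gave 0 (0.0612%) and 1 (0.35%) for controls at 48 h against 3 h and 24 h. It gave 5 (0.42%) for the 24 h minus 3 h effect. Array weights gave 8 (12.7%) for controls at 24 h against 3 h and 3 (3.16%) at 48 h against 24 h. They gave 15 (4.73%) for the 24 h minus 3 h effect. With the arrays compared alone, that effect had 5 (0.944%), and controls 0 at 24 h against 3 h (0.516%) and 0 at 48 h against 3 h (0.0175%). Without the sarin 48 h arrays there were 2 (0.638%) for controls at 48 h against 24 h and 6 (1.54%) for the same effect. Without the level filter the count was 0 (0.0787%) for controls at 48 h against 3 h and 65 (54.9%) for the 48 h minus 24 h effect. With 1 probe set per gene it was 27 at 48 h (69.7%) and 27 for that effect (63%), since fewer probe sets are counted.

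Replicate numbers were not taken to pair the samples. Deviations of same-numbered sarin and control arrays correlated at -0.174 to -0.02 at 3 h, -0.027 to 0.018 at 24 h and -0.02 to -0.004 at 48 h, and those of controls at -0.126 to 0.172 (24 h against 3 h), 0.016 to 0.266 (48 h against 3 h, 2 of 3 over 0.1) and -0.066 to 0.203 (48 h against 24 h), so no comparison had all 3 over 0.1. With the number as a block, the replicate block count was 0 for controls at 48 h against 3 h, in place of 1, and within 1.5 times elsewhere.

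Median centring moved the median change of all probe sets at 24 h from -0.09 to 0.2, so changes are relative to that shift, and the calls of all tested probe sets at 24 h from 391 of 819 to 1379 of 1530 higher. Values of called genes that changed sign at 48 h were ANXA2 with quantile normalization (0.25), COL4A2 with median centring (-0.09), and, scaled to spike-ins, LAMB1 (-1.32), MRC2 (-0.36), COL6A1 (-0.05), COL1A1 (-1.25), COL4A2 (-1.53), DCN (-1.42), THBS1 (-0.94), LAMA4 (-0.09), BGN (-0.42), COL1A2 (-0.5), COL5A1 (-1.36), COL5A2 (-0.9) and the uncalled S100A10 (-2.03). For 48 h minus 24 h they were LAMB1 with median centring (-0.12), and, scaled to spike-ins, S100A10 (-0.91), LAMB1 (-1.34), COL6A1 (-0.41), COL1A1 (-0.84), COL4A2 (-0.84), DCN (-0.77), NID1 (-0.37), COL1A2 (-0.12), COL5A1 (-0.55), COL18A1 (-0.33) and COL5A2 (-0.4). The cause was not tested. Over all alternatives of the named values past the threshold, 1516 values stayed past it in the same direction, 137 no longer passed and 26 changed sign.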
